A study of Homo sapiens with 10 samples.

Results

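DDIT4, DDIT4L, SESN1, SESN2 and SESN3 encode stress-induced inhibitors of the kinase complex mTORC1. The 5 genes were taken by name, each through its 1 probe set annotated to that symbol alone, out of 14232 genes measured in this way on Affymetrix exon arrays. They were picked with their response to PD0332991 already known, so their values under treatment are given as a description and not as a test. PD0332991, now named palbociclib, blocks CDK4 and CDK6, the kinases that D-type cyclins activate early in the cell cycle. The cells were U2OS, a human osteosarcoma line, seeded at 25% density, grown for 30 h in McCoy medium with 10% serum and then treated for 4 h. One group of 5 arrays received PD0332991 and the other group of 5 the solvent DMSO; no genetic change distinguishes the groups. A dose of 1 mM is stated in the labels, which is doubtful, since cells are usually given micromolar amounts of this drug.

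mTORC1 drives protein synthesis and cell growth when growth factors and amino acids are plentiful. It sits on the lysosome, where Rag GTPases recruit it in response to amino acids and the small GTPase RHEB activates it, and the TSC complex keeps RHEB off. DDIT4 (also called REDD1) and its relative DDIT4L (REDD2) act through the TSC complex. The sestrins act on the amino acid arm: they bind GATOR2 and so relieve the brake on GATOR1, which shuts the Rag GTPases off, and SESN2 is a leucine sensor. The genes are known responders to different stresses, DDIT4 to hypoxia, glucocorticoids and the integrated stress response, SESN2 to ATF4, and SESN3 to FOXO factors. Transcript levels alone were measured here, not mTORC1 activity.

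The upstream sequences of DDIT4, SESN3 and, next in order, SESN2 are shown because they had the highest differences of the 5 genes. They come from RefSeq (GRCh38.p14) and run 250 bases up to the annotated start, 5′ to 3′ on the strand of the gene. All 5 genes had such a window, SESN1 with 3 starts. The lines below cover chr10:72273674-72273923 on the plus strand, chr11:95232476-95232725 on the minus strand and chr1:28259268-28259517 on the plus strand. Capitals mark matches to the short motifs searched.
DDIT4: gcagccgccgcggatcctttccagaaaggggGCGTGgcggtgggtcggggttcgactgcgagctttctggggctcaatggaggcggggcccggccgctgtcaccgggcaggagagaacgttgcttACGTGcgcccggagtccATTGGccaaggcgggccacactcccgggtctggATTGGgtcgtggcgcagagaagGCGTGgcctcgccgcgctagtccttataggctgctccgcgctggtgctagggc
SESN3: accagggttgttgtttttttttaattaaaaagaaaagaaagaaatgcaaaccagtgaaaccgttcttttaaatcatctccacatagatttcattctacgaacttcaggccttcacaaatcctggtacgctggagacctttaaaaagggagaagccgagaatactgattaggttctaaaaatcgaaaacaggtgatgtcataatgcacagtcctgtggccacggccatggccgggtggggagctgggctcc
SESN2: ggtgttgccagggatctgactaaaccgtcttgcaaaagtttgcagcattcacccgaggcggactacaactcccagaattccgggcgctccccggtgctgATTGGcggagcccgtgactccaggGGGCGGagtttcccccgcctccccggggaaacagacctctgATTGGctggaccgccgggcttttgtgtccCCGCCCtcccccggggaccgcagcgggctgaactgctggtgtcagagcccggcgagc

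The search covered both strands and reached 50 bases past the start, 300 bases in all, with 11 letter strings: FOXO (GTAAACA), ATF4 composite (TGATGCA), CRE (TGACGTC), HIF (ACGTG and GCGTG), E-box (CACGTG, which overlaps ACGTG), E2F (TTTGGCG and TTTCCCG), CHR (TTTGAA), GC box (GGGCGG) and CCAAT. DDIT4 held ACGTG with its first base at -125, GCGTG at -219, at -53 and once past the start, and CCAAT on the opposite strand at -108 and -75. SESN2 held GC boxes at -127 and -57 and CCAAT on the opposite strand at -151 and -86. None of the 11 strings occurred in the SESN3 window. These strings are common: of 35116 promoter windows, 21.4% held ACGTG, 36.5% GCGTG, 45.0% the GC box and 34.6% CCAAT. The rarer FOXO, ATF4 composite and CRE strings, in 3.42%, 2.63% and 3.45% of windows, were in none of the 7 windows of these genes. The windows of the most responsive genes also differed in base composition. DDIT4 had 68.8% G and C with 26 CpG dinucleotides and SESN3 had 42.8% with 7, against medians of 58.0% and 11.0 over the same 250 bases of all windows.

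The values are the authors' log2 expression values, 1 per gene-level probe set, for 21980 probe sets. By the array names in the labels the arrays fall into set 1 (replicates 1 to 3 of both treatments) and set 2 (replicates 4 and 5 of both). The array medians lay between 6.95 and 7.06. DMSO replicate 1 stood apart, with a mean correlation of 0.962 with the other DMSO arrays, which had 0.977 to 0.980, and the narrowest interquartile range of the 10 arrays (3.18). Of 10 measured mesenchymal and osteoblast markers, 6 lay above the median of all probe sets (VIM, SPARC, COL1A1, COL5A1, COL6A3 and RUNX2), COL1A2, ALPL and SP7 lay below it, and the late osteoblast gene IBSP lay below the lower quartile. Of 4 epithelial markers 1, CLDN4, lay above the median and 0 below the lower quartile, and of 4 blood markers 3 lay below the lower quartile. Probes differ in brightness, so this places the labelled cell type only roughly. In such bulk RNA, fewer cells expressing a gene and less RNA per cell cannot be told apart.

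DDIT4 was higher after PD0332991 on every array. In DMSO its log2 values were 6.33, 6.53, 6.52, 6.26 and 6.12 on replicates 1 to 5, and after treatment 7.60, 7.80, 7.89, 7.49 and 7.38. The groups did not overlap, and the lowest treated array lay 0.85 above the highest DMSO array. The mean went from 6.35 ± 0.18 to 7.63 ± 0.21 (log2, SD, n = 5 per group), a difference of 1.28 with a 95% confidence interval of 1.07 to 1.49 from limma, or 2.43-fold (2.10 to 2.81). This was the highest difference among the 14232 genes, and ranked 3rd among all 21980 probe sets, unnamed ones included. It was 1.30 within array set 1 and 1.25 within array set 2. In DMSO, 40.0% of probe sets had a lower mean than this gene.

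DDIT4L, which shares its mode of action with DDIT4, was not higher. Its values were 5.79, 5.51, 5.26, 6.06 and 5.60 in DMSO and 5.44, 5.45, 4.90, 5.65 and 5.71 after PD0332991. The groups overlapped, and 1 treated array, replicate 3, lay below every DMSO array. The difference was -0.21 (95% confidence interval -0.55 to 0.13). Leaving out DMSO replicate 1 gave -0.13, and leaving out PD0332991 replicate 3 gave -0.11. The gene was dim, with 28.8% of probe sets below its mean, where log2 values from this kind of summary compress differences.

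**Figure D1:**
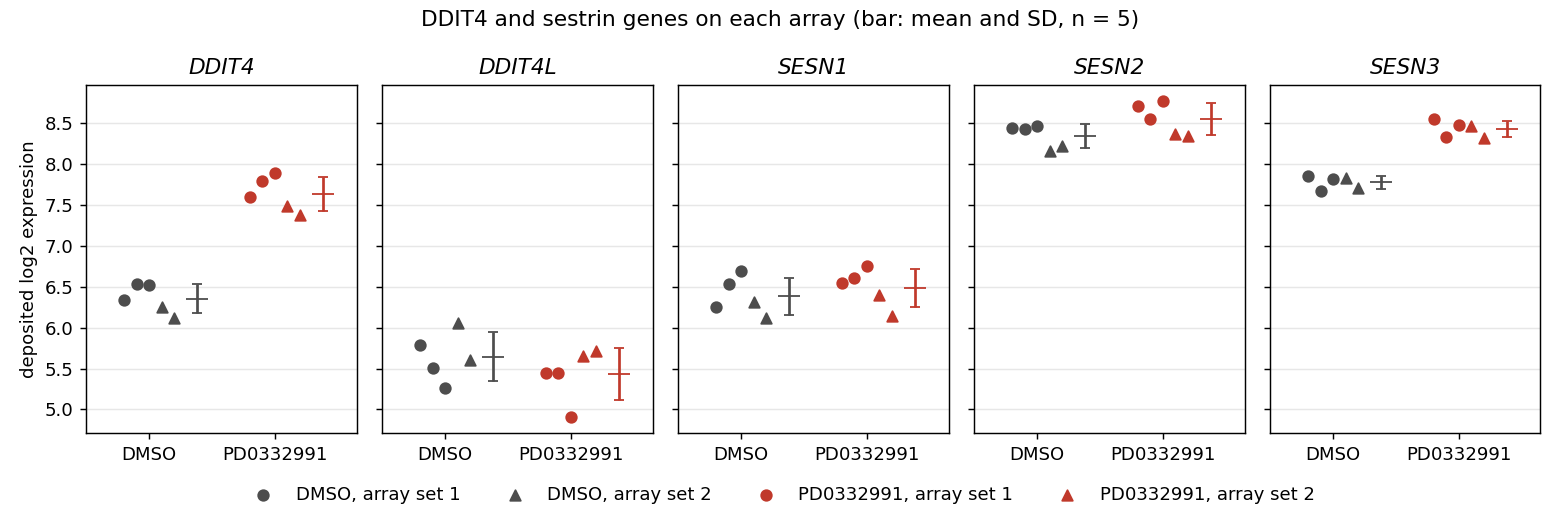
Deposited log2 expression (vertical axis) of DDIT4, DDIT4L, SESN1, SESN2 and SESN3 on each of the 10 arrays, by treatment (horizontal axis) and array set (circles set 1, triangles set 2); the bar beside each group gives the mean and SD of 5 arrays. Treated arrays lie above all DMSO arrays for DDIT4 and SESN3, and levels of different genes cannot be compared with each other.

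SESN3 was the sestrin gene with the largest difference. Its DMSO values were 7.86, 7.67, 7.82, 7.84 and 7.71, and its values after PD0332991 were 8.55, 8.34, 8.48, 8.46 and 8.32. The groups did not overlap, with 0.47 between the lowest treated and the highest DMSO array. The mean went from 7.78 ± 0.08 to 8.43 ± 0.10 (log2, SD, n = 5 per group), a difference of 0.65 (0.45 to 0.85) or 1.57-fold (1.37 to 1.80). The difference ranked 63rd among all probe sets. The gene was one of the steadier ones between replicates. Its residual SD of 0.09 was at percentile 4.75 of all probe sets, and that of DDIT4, 0.11, at percentile 8.64. Picking genes with their response known can favour a low residual SD, so these percentiles carry no further weight.

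SESN2, the leucine sensor, had a smaller difference, seen within each array set. It stood at 8.45, 8.44, 8.47, 8.16 and 8.22 in DMSO and at 8.72, 8.56, 8.78, 8.37 and 8.35 after PD0332991. Over all arrays the groups overlapped, since the treated arrays of set 2 lay below the DMSO arrays of set 1. Within each set every treated array lay above every DMSO array, by at least 0.09 in set 1 and 0.12 in set 2. The difference was 0.21 (95% confidence interval 0.02 to 0.39), or 1.15-fold, 0.23 in set 1 and 0.17 in set 2. It ranked 1990th among all probe sets and did not pass the adjusted threshold of limma. The interval rests on the array set term: its SE was 0.08 with that term and 0.12 without it. The residual SD of SESN2, 0.07, was at percentile 1.17 of all probe sets, which the choice of the genes may likewise favour.

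SESN1, which encodes a further GATOR2-binding sestrin, differed little. Its values were 6.25, 6.54, 6.70, 6.31 and 6.12 in DMSO and 6.54, 6.60, 6.76, 6.40 and 6.15 after treatment, and the groups overlapped within both sets. The difference was 0.11 (95% confidence interval -0.14 to 0.36). Leaving out DMSO replicate 1 gave 0.04, and leaving out PD0332991 replicate 3 gave 0.07.

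In order of the difference the genes ran DDIT4, SESN3, SESN2, SESN1 and DDIT4L, with 4 of 5 above 0 and a median of 0.21, against a median of -0.02 over all genes measured. The intervals of DDIT4 and SESN3 did not overlap each other or those of the other genes, while the intervals of SESN2, SESN1 and DDIT4L overlapped. Of the 5 genes 2 (DDIT4 and SESN3) were past the threshold of limma at an adjusted p of 0.05, both as higher, where 0.00910% of all probe sets were called higher and 0.0409% lower. The same pair had no overlap of groups with treatment above DMSO, as had 0.214% of all probe sets, and none of the 5 had it with treatment below DMSO, as had 0.560%. With SESN2, 3 of 5 had no overlap within either array set, as had 0.814% of probe sets. The genes were chosen on this contrast, so these counts describe the choice and carry no further weight. SESN3 was close to the threshold: when single arrays were left out it was called in 1 of 10 fits, the one without DMSO replicate 1, and DDIT4 in 10 of 10. Of the 11 other alternatives, 5 called SESN3.

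**Figure D2:**
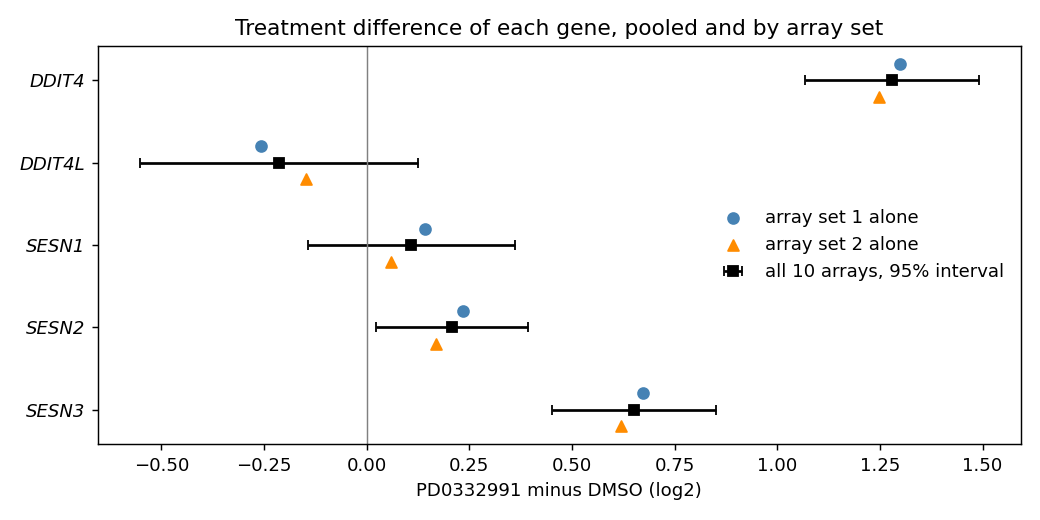
Difference between PD0332991 and DMSO (horizontal axis, log2) for each of the 5 genes (vertical axis), with squares and bars for the estimate and 95% confidence interval over 10 arrays, and circles and triangles for array sets 1 and 2 alone. DDIT4 lies at 1.28 and SESN3 at 0.65, the array sets lie within 0.11 of each other for every gene, and the intervals of SESN1 and DDIT4L include 0.

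The difference between array sets did not itself enter the choice of the genes. Its test is still not independent of that choice, since it uses the same residual variance as the treatment test. A low residual SD lowers the p-values of both. Residual SDs were at percentile 1.17 of all probe sets for SESN2, 4.75 for SESN3, 8.64 for DDIT4, 24.6 for SESN1 and 55.4 for DDIT4L. Between sets, DDIT4, SESN1 and SESN2 were lower in set 2 than in set 1 by similar amounts, DDIT4L was higher in set 2 and SESN3 hardly differed. The difference of set 2 minus set 1 was -0.30 (95% confidence interval -0.51 to -0.08) for DDIT4, -0.32 (-0.58 to -0.06) for SESN1, -0.29 (-0.48 to -0.10) for SESN2, 0.37 (0.02 to 0.71) for DDIT4L and -0.04 (-0.24 to 0.17) for SESN3. None of the 5 passed limma's adjusted threshold (adjusted p = 0.0944 for SESN2, 0.126 for DDIT4, 0.170 for SESN1, 0.247 for DDIT4L and 0.884 for SESN3), where 3.53% of all probe sets were called. At an unadjusted p under 0.05 there were 4 of 5, against 18.3% of all probe sets. Given the shared residual variance, this count is a description and carries no further weight. Without DMSO replicate 1, SESN1, DDIT4 and SESN2 did pass by limma (adjusted p = 0.0417, 0.0470 and 0.0475), in a fit that called 8.21% of all probe sets. The same 3 genes passed with array weights, where 13.5% were called, and SESN2 alone passed with quantile normalization or without the dimmest 33.3% of probe sets, where 4.17% and 8.68% were called. Without replicate 1 of both treatments only DDIT4 passed, with 5.47% called. In every other alternative none of the 5 passed. These included all other fits leaving out single arrays, the fit without the array set term and that with centred arrays. What separates the array sets is not given beyond the array names.

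Whether the response to PD0332991 itself differed between the sets was tested with an interaction term. The term was -0.05 for DDIT4 (95% confidence interval -0.52 to 0.42), 0.11 for DDIT4L (-0.63 to 0.85), -0.08 for SESN1 (-0.64 to 0.47), -0.07 for SESN2 (-0.48 to 0.34) and -0.05 for SESN3 (-0.50 to 0.39). None passed (limma adjusted p = 1.00 for each), and none of the 21980 probe sets did, a share of 0%, with 562 at an unadjusted p under 0.05. These intervals would allow a set difference of up to 0.52 on the log2 scale for DDIT4.

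The genes whose profiles over the 10 arrays were most like DDIT4 and SESN3 were sought after subtracting the mean of each array set, by Pearson's r, over all 14232 genes. SESN3 was the gene most like DDIT4 (r = 0.96, Spearman's rho 0.71). In the other direction DDIT4 ranked 2nd for SESN3, after PIK3IP1, which encodes an inhibitor of the lipid kinase PI3K (r = 0.96, rho 0.92). After SESN3, the genes most like DDIT4 were CCNG2, encoding the growth-arrest cyclin G2 (0.95), YPEL2 (0.94), the histone demethylase gene KDM4A (0.93) and TSC22D1 (0.93). For SESN3 the list went on with the splicing kinase gene CLK3 (0.93), the pseudokinase gene TRIB1 (0.92) and RAB39B (0.91). SESN2 stood 6th for SESN3 (0.91) and 25th for DDIT4 (0.87). SESN1 and DDIT4L were far down both orders, with r of 0.48 and -0.51 to DDIT4 and 0.39 and -0.41 to SESN3. The centred values of DDIT4 and SESN3 split by treatment. Each r thus mainly states how cleanly a gene separates the treatments and is given as a description without a test. Leaving out each array in turn, SESN3 stayed among the 5 genes most like DDIT4 in 10 of 10 cases, and DDIT4 and PIK3IP1 among the 5 most like SESN3 in 10 of 10. For DDIT4, CCNG2 did so in 8 of 10, YPEL2 in 6 of 10, and KDM4A and TSC22D1 in 2 of 10 each. For SESN3, CLK3 did so in 4 of 10, TRIB1 in 2 of 10 and RAB39B in 1 of 10. Apart from SESN3, DDIT4 and PIK3IP1, the places in these lists thus depend on single arrays. DDIT4 and SESN3 were picked with their response known. The likeness between them therefore carries no further weight, whichever array is left out.

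CCNG2 was at 7.00, 7.45, 7.08, 7.15 and 7.23 in DMSO and at 8.05, 8.15, 7.90, 7.89 and 7.83 after PD0332991. Its groups did not overlap. The difference was 0.78 ± 0.11 (SE, limma adjusted p = 0.0629), just outside the threshold. PIK3IP1 was at 5.91, 5.77, 6.02, 6.20 and 6.16 in DMSO and at 6.45, 6.29, 6.25, 6.78 and 6.70 after treatment. Its groups did not overlap either (0.48 ± 0.09, SE, limma adjusted p = 0.207). YPEL2 had a difference of 1.03 ± 0.17 (SE, limma adjusted p = 0.141), KDM4A of 0.66 ± 0.12 (0.207) and CLK3 of 0.46 ± 0.11 (0.431), and none of the genes named here beside DDIT4 and SESN3 passed. Of 21 alternatives, CCNG2 passed in 5, the fit without DMSO replicate 1 among them, and YPEL2 in 3, while KDM4A, PIK3IP1 and CLK3 passed with array weights alone.

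**Figure D3:**
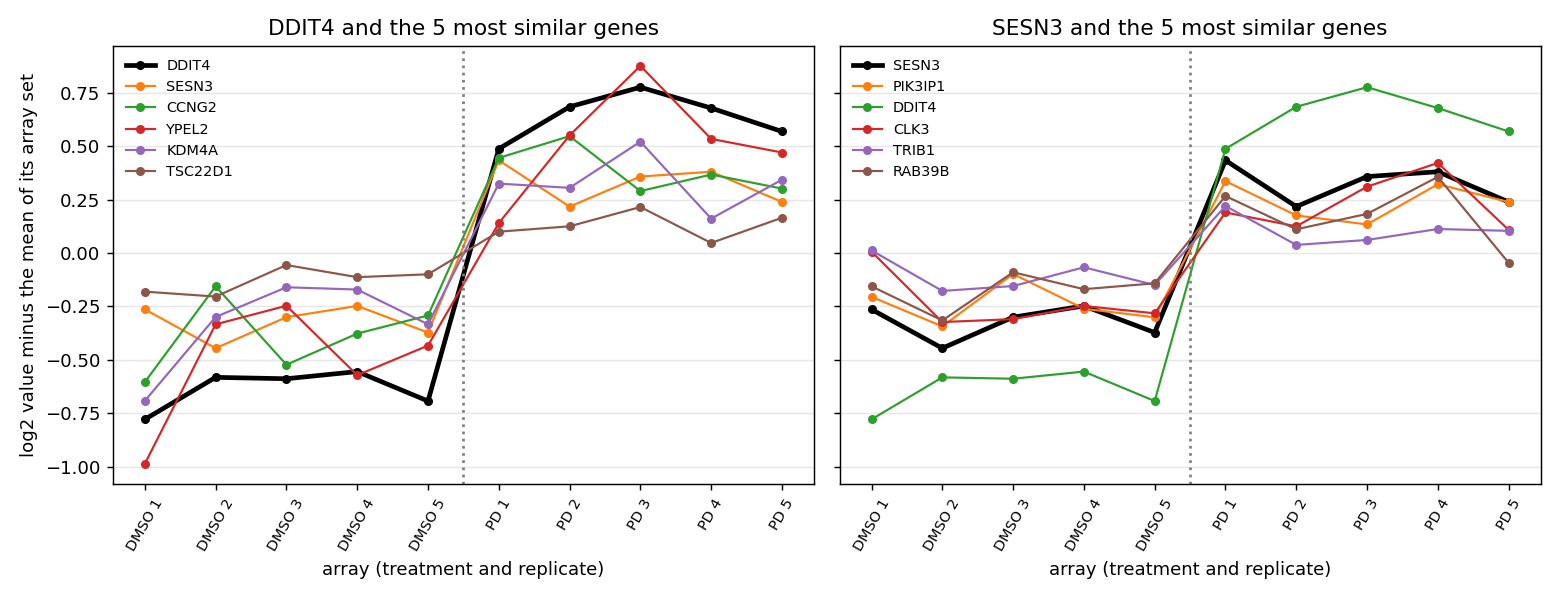
Log2 value minus the mean of its array set (vertical axis) on each array (horizontal axis, treatment and replicate) for DDIT4 (left, black) and SESN3 (right, black) with the 5 genes whose profiles were most like each. Each line is higher on average after PD0332991 than in DMSO, and DDIT4 has the tallest step of the right-hand genes.

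The machinery on which these inhibitors act was then read from lists of the pathway. In the mTORC1 complex and its TSC-RHEB switch, 2 of 11 measured genes were higher and 9 lower, with a median of -0.06, and none passed or reached an unadjusted p under 0.05 by limma. MTOR, the kinase, was at 8.83 ± 0.20 in DMSO and 8.92 ± 0.06 after PD0332991 (log2, SD, n = 5), and RPTOR, its substrate-binding partner, at 8.89 ± 0.07 and 8.87 ± 0.09. The genes of the TSC complex, through which DDIT4 acts, had differences of -0.01 ± 0.09 (TSC1) and -0.08 ± 0.09 (TSC2, SE). The inhibitors that belong to mTORC1 itself, DEPTOR and AKT1S1 (PRAS40), had -0.10 ± 0.12 and -0.06 ± 0.14 (SE), and AKT1S1 turned to 0.08 without DMSO replicate 1. RHEB was dim and scattered (4.43 ± 1.00 in DMSO and 4.79 ± 0.74 after treatment), and its difference of 0.36 ± 0.43 (SE) was smaller than its error, with opposite signs in array set 1 (1.00) and set 2 (-0.59). The smallest p-values were those of TELO2 and TTI1, assembly factors of the kinase (-0.16 and -0.11), and of the RHEB relative RHEBL1 (-0.21).

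In the amino acid arm, where the sestrins act, 11 of 19 measured genes were higher and 8 lower (median 0.00). KICS2, of the KICSTOR complex that holds GATOR1 on the lysosome, was at 6.48 ± 0.22 in DMSO and 6.93 ± 0.17 after treatment, a difference of 0.45 ± 0.12 (SE, limma adjusted p = 0.617). DEPDC5, a GATOR1 subunit, was at 7.41 ± 0.12 and 7.16 ± 0.10, with 5 of 5 treated arrays below every DMSO array (-0.26 ± 0.09, SE, limma adjusted p = 1.00). LARS1, the leucyl-tRNA synthetase gene, had 0.19. Of the upstream kinases, 8 of 14 were higher (median 0.04), with PRKAB2, a regulatory subunit of the energy sensor AMPK, at 0.28 ± 0.10, STRADA at -0.20 and MAPKAP1, of mTORC2, at 0.18. Of the substrates and effectors, 9 of 16 were higher (median 0.04), with the translation inhibitor PDCD4 at 0.41 ± 0.17, the autophagy kinase gene ULK2 at -0.21 ± 0.09 and LPIN1 at 0.24 ± 0.15 (SE). No gene of these 4 lists passed the adjusted threshold, and 5 of their 60 measured genes had an unadjusted p under 0.05, against 3.82% of all genes measured.

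Apart from TP73, factors known to act on these genes differed little as transcripts. Of 11 measured, 5 were higher (median -0.01) and none passed. ATF4 had -0.19 ± 0.11, HIF1A 0.14 ± 0.12, the glucocorticoid receptor gene NR3C1 0.02 ± 0.08 and FOXO1 -0.02 ± 0.12 (SE, n = 5 per group). FOXO1 had opposite signs in the array sets (-0.22 in set 1 and 0.27 in set 2). DDIT3, an ATF4 partner, had 0.17, and TP73 -0.36 ± 0.12, with 5 of 5 treated arrays below every DMSO array. FOXO3 and NFE2L2 have no probe set with a single symbol and were not analysed here. Several of these factors are also controlled after transcription, by steps that arrays do not measure.

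Other known targets of the same factors were set beside the genes. Among FOXO targets 15 of 21 measured were higher, with a median of 0.08, and 7 had an unadjusted p under 0.05 (6 higher, 1 lower), a share of 33.3% against 3.82% of all genes. The 3 with the smallest p were CCNG2 and PIK3IP1, given above, and TXNIP, an inhibitor of thioredoxin and of glucose uptake, at 0.33 ± 0.11 (SE). Among glucocorticoid receptor targets 8 of 11 were higher (median 0.09), and 3 had an unadjusted p under 0.05, all higher: KLF9 at 0.34 ± 0.12, TSC22D3 at 0.27 ± 0.10 and ERRFI1 at 0.29 ± 0.13 (SE). TSC22D3 belongs to both lists. Among ATF4 targets 16 of 21 were higher (median 0.05), and 2 had an unadjusted p under 0.05 (9.52%). These were CHAC1, a glutathione-degrading enzyme, at 0.39 ± 0.15 and NUPR1 at 0.29 ± 0.12 (SE). Among HIF targets 7 of 17 were higher (median -0.01), and 1 had an unadjusted p under 0.05 (5.88%), ENO2 at -0.20 ± 0.08 (SE). BNIP3 was at 0.41 ± 0.20 and KDM3A at 0.20 ± 0.14 (SE). Of all genes measured, 44.7% were higher. No gene of these lists passed limma's adjusted threshold, and no list was tested as a whole, since the lists were drawn up with results of these arrays known.

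**Figure D4:**
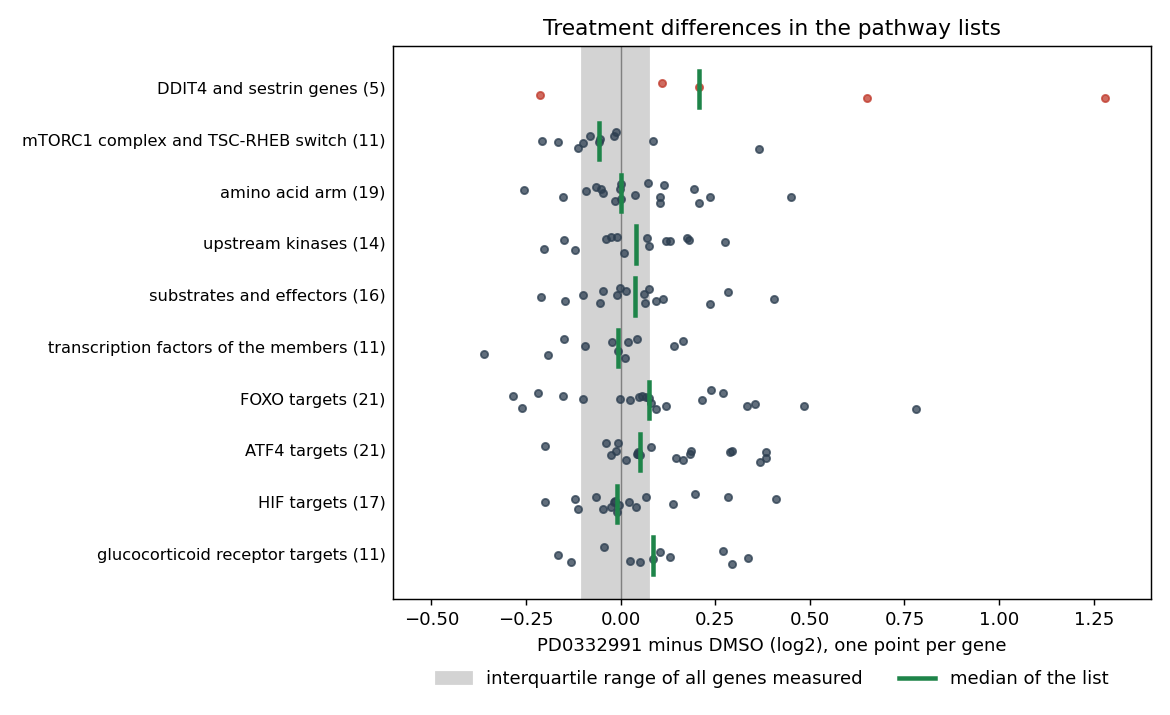
Difference between PD0332991 and DMSO (horizontal axis, log2) of every measured gene, 1 point each, in the pathway lists (rows, number of genes in brackets), with a green bar at each median and a grey band for the interquartile range of all 14232 genes measured. DDIT4 at 1.28 lies beyond every gene of the other rows, of which CCNG2 at 0.78 is the highest.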

How the data were processed

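The authors deposited log2 expression values, with a single value for each gene-level probe set. RMA, Partek and hg18 are named, per the submitters' processing notes, but neither versions nor settings. The RMA method subtracts background, aligns the arrays with each other and combines probes, and it compresses differences of dim genes. Probe sets were named from the platform annotation (14432 with 1 symbol, 2408 with several, 5140 with none), checked through Entrez identifiers against RefSeq. Where a gene had several probe sets, the brightest on average stood for it.

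Values were used as deposited. Treatment, array set and their interaction were tested with limma 3.58.1 in R 4.3.3 by moderated 2-sided tests (lmFit, then eBayes) that held array set fixed. P-values were adjusted by Benjamini and Hochberg's method across the 21980 probe sets, and 0.05 was the threshold. Data were simulated with independent normal noise and log2 changes planted in 80 probe sets at 0.5, 80 at 1.0 and 40 at 2.0. The procedure called 15%, 70% and 95% of these in the same order. Of 114 simulated calls, 8 were false. Most changes of 0.5 or less would thus be missed. The real arrays gave far fewer calls, 2 higher and 9 lower, which makes the adjusted threshold stricter. The shares recovered there may therefore be lower than in the simulation. P-values measure the spread between the labelled biological replicates. The 5 genes, the lists and the motifs were chosen with earlier results of these data known. Of 169 list entries 141 had a single-symbol probe set. Named were the 5 genes, the 3 smallest p-values of each list, fixed regulators and the 5 most similar profiles; 1 regulator and the list of its targets are not reported here. The number of arrays limits the precision, and signals over background were not used here. Figures were drawn with Matplotlib 3.10.9.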

Additional observations from a re-analysis of the deposited data

Results flagged for a closer look

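Among 94 groups of 5 arrays checked, the named genes in DMSO and in PD0332991, 5 held an array far from the other 4, about the 1 in 20 that chance gives, and none concerned DDIT4, DDIT4L or the sestrins. AKT1S1 was at 10.01 on DMSO replicate 1 and at 9.33 to 9.40 on the other DMSO arrays. YPEL2 was at 5.34 on DMSO replicate 1, against 5.99 to 6.14. ATF4 was at 7.65 on PD0332991 replicate 3, against 8.01 to 8.11. DEPDC5 was at 7.63 on DMSO replicate 3, against 7.34 to 7.42. ULK2 was at 5.73 on DMSO replicate 4, against 6.00 to 6.09.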

How the results depend on the processing

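The difference of each of the 5 genes kept its sign under every alternative that tested it and moved by less than its residual SD. Leaving out single arrays gave 1.24 to 1.32 for DDIT4, 0.62 to 0.68 for SESN3, 0.18 to 0.24 for SESN2, 0.04 to 0.16 for SESN1 and -0.29 to -0.11 for DDIT4L. The 11 other alternatives gave 1.23 to 1.31, 0.62 to 0.69, 0.17 to 0.23, 0.06 to 0.15 and -0.26 to -0.11 in the same order; DDIT4L could not be fitted without the dimmest 33.3% of probe sets. The calls moved more. Of the 5 genes, 2 were called in the main comparison, 1 (DDIT4) without the array set term, with arrays centred on their medians, with the replicate block in place of array set or without replicate 1 of both treatments (chosen after seeing the data), and 0 in array set 1 or 2 alone, where fewer arrays were fitted. Leaving out single arrays gave 1 to 2. Over all probe sets, 2 were higher and 9 lower. The higher count was 1 without the array set term, with centring and with the replicate block, 4 over single-symbol probe sets, 13 with array weights (whose estimation stopped before full convergence), 0 in either array set alone and 1 to 3 leaving out single arrays. The lower count was 1 with the replicate block, 14 over single-symbol probe sets, 50 with array weights, 0 in either array set alone and 1 to 20 leaving out single arrays (20 without DMSO replicate 1, 1 without replicate 1, 4 or 5 of PD0332991 or 4 or 5 of DMSO). The replicate numbers were not taken as pairs, since not every same-numbered correlation of deviations from the treatment means was over 0.1 (0.04, 0.07, 0.54, 0.23 and 0.20). Within array sets the correlations were 0.09, 0.02, 0.40, -0.05 and -0.05. Replicates 4 and 5 are the only arrays of set 2 in each treatment, so their within-set values are equal by construction. Of 10 arrays, 4 correlated best with their own number. The array set count of 776 was 1272 without the dimmest 33.3%, 2966 with array weights, 1203 without replicate 1 of both treatments and 88 (without DMSO replicate 5) to 1805 (without DMSO replicate 1) leaving out single arrays. The interaction count stayed at 0. The median of the ATF4 targets, 0.053, was 0.093 with array weights and in array set 1 alone, 0.15 in array set 2 alone and 0.049 to 0.12 (without DMSO replicate 2) leaving out single arrays. The FOXO median of 0.075 ran from 0.034 (without DMSO replicate 3) to 0.16 (array set 2 alone), that of the glucocorticoid receptor targets, 0.086, from -0.005 (array set 1 alone) to 0.14 (array set 2 alone), and that of the upstream kinases, 0.040, turned to -0.042 without DMSO replicate 1. The medians of the amino acid arm, the transcription factors and the HIF targets, all near 0, also turned. Of the 42 other named genes, none called, 8 changed sign under an alternative (AKT1S1, DEPTOR, FOXO1, MTOR, NR3C1, RHEB, RPTOR and TSC1) and 5 gained a call. The cause of these shifts was not tested.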
